A study of Mus musculus with 8 samples.

Results

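The 5 noncoding RNAs *Scarna2*, *Scarna10*, *Scarna17*, *Rpph1* and *Rmrp* were described in mouse bone marrow mesenchymal stem/stromal cells (MSCs), as 5 of the 24346 rows of the deposited expression table. They were chosen because they carry most of the variance of the untransformed values over these same libraries, so their levels and differences are given as a description, without a test. MSCs grow attached to the dish and give rise to osteoblasts, adipocytes and chondrocytes. The 8 RNA libraries formed 4 groups of 2, namely WT and *Dnmt3l* KO MSCs, each taken undifferentiated and during osteogenic differentiation, all C57BL/6 and at passage 4. *Dnmt3l* encodes a cofactor of the de novo DNA methyltransferases, and the differentiating cells had spent 3 days in osteogenic medium with dexamethasone, β-glycerophosphate and ascorbic acid 2-phosphate. KO mice carried the tmEnls allele on both copies in every cell, not in a chosen cell type. MSCs of several mice were mixed within a genotype, and the WT cells came from littermates. The study's methods name adult females as the source of MSCs. The labels give no age and do not tell whether both libraries of a group stem from different cell mixes, so p-values measure the spread between libraries, which may be technical.

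Small Cajal body RNAs (scaRNAs) guide 2'-O-methylation and pseudouridylation of the spliceosomal small nuclear RNAs (snRNAs) and gather in the Cajal body, a nuclear compartment where small ribonucleoproteins mature. *Scarna2* and *Scarna17* are guides of the box C/D kind, named after short sequence boxes near the ends of the RNA, and *Scarna10*, also called U85, joins a box C/D and an H/ACA domain. *Rpph1* is the RNA of ribonuclease P, which trims the 5' leader from precursor tRNAs, and *Rmrp* is the RNA of ribonuclease MRP, which acts in ribosomal RNA processing and is mutated in cartilage-hair hypoplasia, a human skeletal disorder. Both are made by RNA polymerase III from promoters that lie upstream of the gene, and they share most of their protein subunits.

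The values are RPKM, that is reads divided by transcript length and by library size. On this scale the 5 RNAs were the 5 highest rows of the table. Mean RPKM over the libraries was 235628 for *Scarna2*, 45589 for *Rmrp*, 45194 for *Rpph1*, 37165 for *Scarna10* and 8671 for *Scarna17*. The next rows were *S100a4* at 5366 RPKM, *Rplp1* at 5032, the microRNA gene *Mir1949* at 4872, *Rpl41* at 3853 and *Ftl1* at 3760. Levels between genes depend on the length of each gene's model, and the models of the 3 scaRNAs were short. *Scarna2* is annotated by GENCODE on the minus strand at chr3:108554338-108554751 of GRCm38 (mm10) with 414 nt, and by RefSeq at chr3:108554342-108554402 with 61 nt. *Scarna10* lies on the minus strand at chr6:125186359-125186683 with 325 nt in GENCODE, and at chr6:125186361-125186431 with 71 nt in RefSeq. For *Rpph1* (chr14:50807449-50807767, minus strand, 319 nt in GENCODE and 325 nt in RefSeq) and *Rmrp* (chr4:43492788-43493058, minus strand, 271 nt and 275 nt) both annotations cover nearly the same bases.

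The sequences show which part of each RNA a read had to match. The last 120 nt of the GENCODE transcripts of *Scarna2* (chr3:108554338-108554457) and *Scarna10* (chr6:125186359-125186478) are printed 5' to 3' as DNA letters, with the bases of the RefSeq model in capitals. The whole GENCODE transcript of *Rmrp* is printed for contrast, since the RefSeq model holds all of it.
Scarna2: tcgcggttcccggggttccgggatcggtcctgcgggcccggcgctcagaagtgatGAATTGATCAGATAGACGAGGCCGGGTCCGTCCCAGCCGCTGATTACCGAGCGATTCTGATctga
Scarna10: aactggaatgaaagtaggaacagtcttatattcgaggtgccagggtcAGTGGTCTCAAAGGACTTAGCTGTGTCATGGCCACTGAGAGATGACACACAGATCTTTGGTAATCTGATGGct
Rmrp: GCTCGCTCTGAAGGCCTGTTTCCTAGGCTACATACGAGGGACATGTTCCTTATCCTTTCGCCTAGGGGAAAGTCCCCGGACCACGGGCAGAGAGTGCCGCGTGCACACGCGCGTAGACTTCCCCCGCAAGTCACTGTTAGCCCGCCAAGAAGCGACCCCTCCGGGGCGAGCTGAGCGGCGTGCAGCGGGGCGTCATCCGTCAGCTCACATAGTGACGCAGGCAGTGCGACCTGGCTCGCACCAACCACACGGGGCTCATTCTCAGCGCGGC
The capitals hold 61 bases of *Scarna2*, or 14.7% of its GENCODE length, and 71 bases of *Scarna10*, or 21.8%. In each case they lie at the 3' end of the RNA. The letters CTGA, the core of box D, occur 3 times in the printed stretch of *Scarna2* and 2 times in that of *Scarna10*, searched on the strand of the RNA, and at least once in 49.6% of all 137364 GENCODE transcripts read over their last 120 nt. TGATGA, the core of box C, starts at base 52 of the *Scarna2* stretch, at the boundary of the capitals, is not in the *Scarna10* stretch, and occurs in 5.22% of these transcript ends.

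The number of reads behind an RPKM value was recovered from the values themselves. For small RNA genes with 1 RefSeq transcript, values of up to 15 reads were whole multiples of what 1 read is worth, within 0.02 read, in 1450 of 1571 cases (92.3%), when the length was counted as the Cufflinks programs do by default for single-end reads, with fragments of 200 ± 80 nt and a shortest fragment of 49 nt. With a shortest fragment of 48 or 50 nt the share of whole values was 36.0% or 35.8%. The libraries then held between 48.3 and 67.3 M scaled reads (median 50.1 M), most of all replicate 1 of differentiating WT MSCs. In all 8 libraries the values of *Scarna2*, *Scarna10* and *Scarna17* were whole reads at the RefSeq lengths of 61, 71 and 62 nt. At any of 25 other lengths from 55 to 80 nt they were whole in at most 2, 1 and 2 libraries.

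At these lengths 1 read was worth 172 to 239 RPKM for *Scarna2*, 52.3 to 72.8 RPKM for *Scarna10* and 148 to 206 RPKM for *Scarna17*, depending on the library. For *Rmrp* it was worth 0.190 to 0.265 RPKM, and for *Rpph1* 0.121 to 0.169 RPKM. Thus the highest level of the table, that of *Scarna2*, came from 799 to 1305 reads per library, that of *Scarna10* from 274 to 824 reads, and that of *Scarna17* from 26 to 70 reads. *Rpph1* came from about 207977 to 363368 reads and *Rmrp* from about 153479 to 236294 reads, which are estimates because steps of single reads are too fine to see at such values. Ranked by RPKM multiplied by effective length, which is proportional to reads, *Rpph1* was at place 6 and *Rmrp* at place 20 of 23314 rows with a length, but *Scarna2* was at place 7482, *Scarna10* at 9119 and *Scarna17* at 12585. By reads, *Rpph1* and *Rmrp* thus stood near the top of the table and the 3 scaRNAs did not. Reads also grow with the length of the model, and the models of the 3 scaRNAs are short. Places by reads therefore cannot tell whether the scaRNAs themselves are abundant. With the GENCODE lengths the same reads would give 76.8 to 125 RPKM for *Scarna2*, 46.3 to 133 RPKM for *Scarna10* and 989 to 2592 RPKM for *Scarna17*. If reads from other parts of these RNAs exist, this table does not count them under these names.

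**Figure D1:**
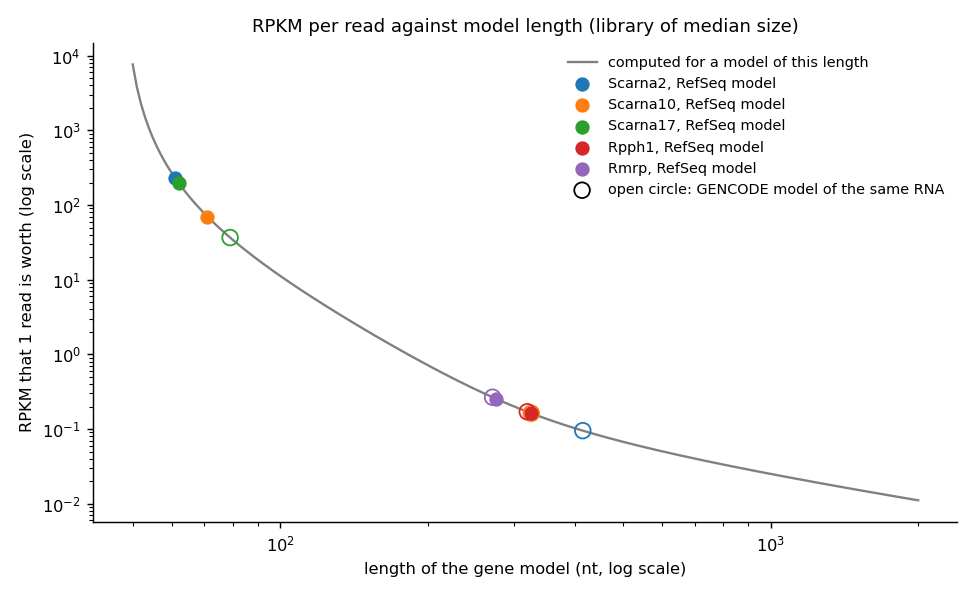
RPKM that 1 read is worth (log scale) against the length of the gene model in nt (log scale) in a library of median size. The line is computed from the fragment length model; filled points are the RefSeq models, open circles the GENCODE models of the same RNAs, and the open circle of *Scarna10* lies under the point of *Rpph1*. At 61 nt 1 read is worth 231 RPKM, and at 275 nt 0.256 RPKM.

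*Scarna2* was lowest in undifferentiated KO MSCs and highest in differentiating KO MSCs. Its level was 220226 and 243255 RPKM in the undifferentiated WT libraries (939 and 1083 reads) and 219774 and 244599 RPKM in the differentiating WT libraries (1280 and 1092 reads). In KO MSCs it was 190966 and 186067 RPKM before induction (799 and 801 reads) and 276586 and 303548 RPKM after it (1209 and 1305 reads). The WT groups overlap, while the KO libraries lie below both WT libraries before induction and above both after it. The mean in KO was 0.813 times that in WT in undifferentiated MSCs and 1.25 times in differentiating MSCs. With induction the mean was 1.0 times the undifferentiated mean in WT and 1.54 times in KO.

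*Scarna10* showed the widest range of the 5 RNAs, with the highest library at 2.88 times the lowest. The values were 34508 and 27916 RPKM in undifferentiated WT and 41791 and 39166 RPKM in differentiating WT MSCs. In KO MSCs they were 19949 and 24059 RPKM before induction, from 274 and 340 reads, and 57424 and 52505 RPKM after it, from 824 and 741 reads. No pair of groups in the 4 comparisons overlaps. The mean was 31212 ± 4661 RPKM before and 40478 ± 1856 RPKM after induction (SD, n = 2) in WT, a ratio of 1.3. In KO it was 22004 ± 2906 RPKM before and 54965 ± 3478 RPKM after induction (SD, n = 2), a ratio of 2.50. As a log2 difference of log2(RPKM + 0.1), KO minus WT was -0.50 in undifferentiated and 0.44 in differentiating MSCs.

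*Scarna17* rested on the fewest reads. It lies on the minus strand of chromosome 18 with 79 nt in GENCODE (74778391 to 74778469) and 62 nt in RefSeq (74778394 to 74778455). It was at 6856 and 5987 RPKM in undifferentiated WT (34 and 31 reads), 10334 and 9822 RPKM in differentiating WT (70 and 51 reads), 5343 and 7190 RPKM in undifferentiated KO (26 and 36 reads) and 9835 and 14000 RPKM in differentiating KO MSCs (50 and 70 reads). The differentiating libraries lie above the undifferentiated ones in both genotypes, at 1.57 times the mean in WT and 1.90 times in KO. The genotypes overlap in both states. An exact 95% Poisson interval, which covers counting error only, runs from 3490 to 7829 RPKM for the lowest library and from 10914 to 17688 RPKM for the highest, so that differences between single libraries of neighbouring value were not detectable at this depth.

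*Rpph1* was highest in differentiating KO MSCs. Its level was 42780 and 37951 RPKM in undifferentiated WT and 44065 and 43747 RPKM in differentiating WT libraries. In KO libraries it was 35108 and 40203 RPKM before induction and 58226 and 59472 RPKM after it. The undifferentiated groups of both genotypes overlap, while after induction both KO libraries lie above both WT libraries, at 1.34 times the mean. The ratio of the means after and before induction was 1.09 in WT and 1.56 in KO.

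*Rmrp* varied least, with the highest library at 1.22 times the lowest. The values were 47801 and 45457 RPKM in undifferentiated WT and 44983 and 43243 RPKM in differentiating WT MSCs, where both induced libraries are the lower ones. In KO MSCs they were 40671 and 45731 RPKM before induction and 47304 and 49518 RPKM after it, where both induced libraries are the higher ones. The ratio of the means was 0.946 in WT and 1.12 in KO. Undifferentiated KO and WT libraries overlap. Dividing each library by its column sum turns 3 of the *Rmrp* differences to the other sign. On the log2 scale they are then 0.01 (KO minus WT, undifferentiated), -0.004 (KO minus WT, differentiating) and -0.08 (induction in KO). Of that sum *Scarna2* alone held 21.3% to 29.4%, so the sum moves with it. After division by the column sum without the chosen RNAs, no *Rmrp* difference changed sign. The direction thus depends on the scaling, and none is given for *Rmrp* beyond the RPKM values.

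**Figure D2:**
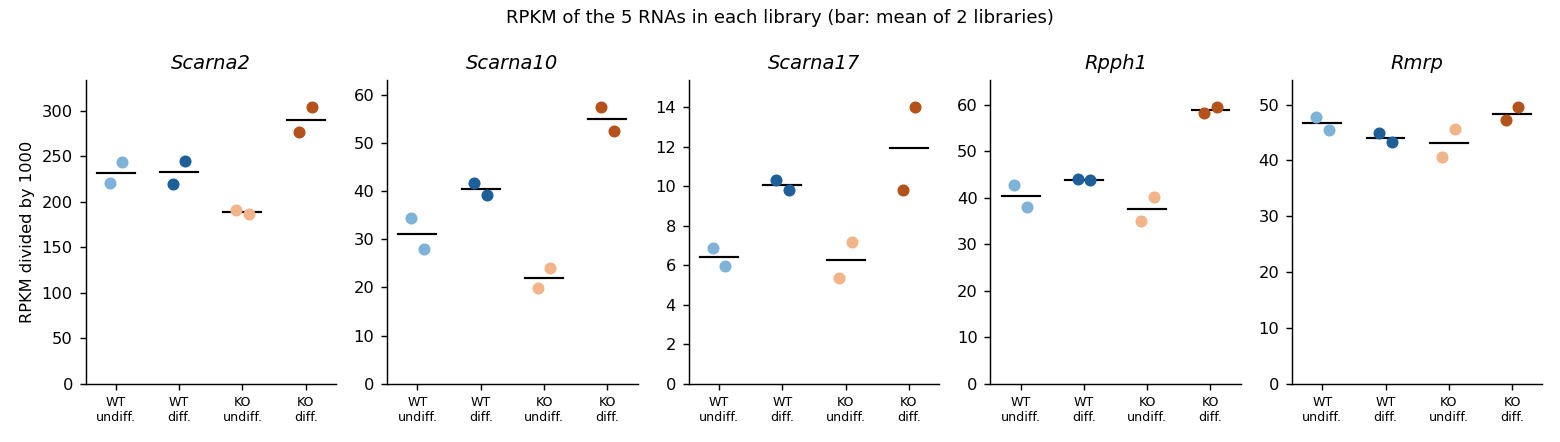
RPKM divided by 1000 of the 5 RNAs in each of the 8 libraries, by genotype and state; points are libraries and bars the mean of 2 libraries, and each panel has its own axis from 0. The differentiating KO libraries hold the highest point in each panel, at 303548 RPKM for *Scarna2* and 57424 RPKM for *Scarna10*.

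In undifferentiated MSCs, 2 of the 5 RNAs (*Scarna2* and *Scarna10*) had both KO libraries below both WT libraries, as did 36.9% of the 15342 genes whose mean reached 0.1 RPKM, while 0 of 5 had both above (34.8% of all genes). In differentiating MSCs 4 of 5 had both KO libraries above both WT libraries, against 33.8% of all genes, and 0 of 5 had both below (37.1%). With induction, 3 of 5 were higher without overlap and 1 of 5 was lower in WT, where 41.5% and 41.9% of all genes were. In KO 5 of 5 were higher without overlap, against 42.5% of all genes, and 0 of 5 were lower (42.8%). These counts describe rows that were picked for their variance and carry no test. Across the 8 libraries, which share their groups, Pearson's r of log2(RPKM + 0.1) ran from 0.569 between *Scarna17* and *Rmrp* to 0.928 between *Scarna10* and *Rpph1*. Among 6346 genes that averaged 10 RPKM or more and were never at 0, the patterns most like that of *Scarna10* were those of *Zfp950* (r = 0.987), *Arhgef40* (r = 0.987) and *Pnpla8* (r = 0.985). The most like *Scarna2* were *Hps1*, *Bin3* and *Pld3* (r = 0.965 to 0.973), and the most like *Scarna17* were *Scaf8*, *Snord15a* and *Tdrd3* (r = 0.958 to 0.986). For *Rpph1* they were *Chkb*, *Il17ra* and *Zeb1* (r = 0.971 to 0.977). For *Rmrp*, *Rnu12* (r = 0.863) and *Snord49a* (r = 0.857) were among the most like. These are the highest of many correlations over 4 groups and are given as a description.

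As a share of the column sum, the 5 RNAs held 34.0% to 46.4% of all RPKM of a library. The share was 37.7% ± 0.195 (SD, n = 2) in undifferentiated WT, 39.7% ± 0.584 in differentiating WT, 34.4% ± 0.581 in undifferentiated KO and 45.2% ± 1.69 in differentiating KO MSCs. *Scarna2* alone held 21.3% to 29.4%. The same RNAs held 0.750% to 1.12% of the scaled reads, nearly all of them from *Rpph1* (0.430% to 0.729%) and *Rmrp* (0.318% to 0.387%). *Scarna2* held 0.00161% to 0.00263% of the reads. More widely, the 1015 small RNA rows with a model under 100 nt took 31.0% to 41.9% of the column sum from 0.00387% to 0.00627% of the reads, and the 282 rows with a model of 100 to 350 nt took 10.4% to 12.9% of the sum from 0.764% to 1.15% of the reads.

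**Figure D3:**
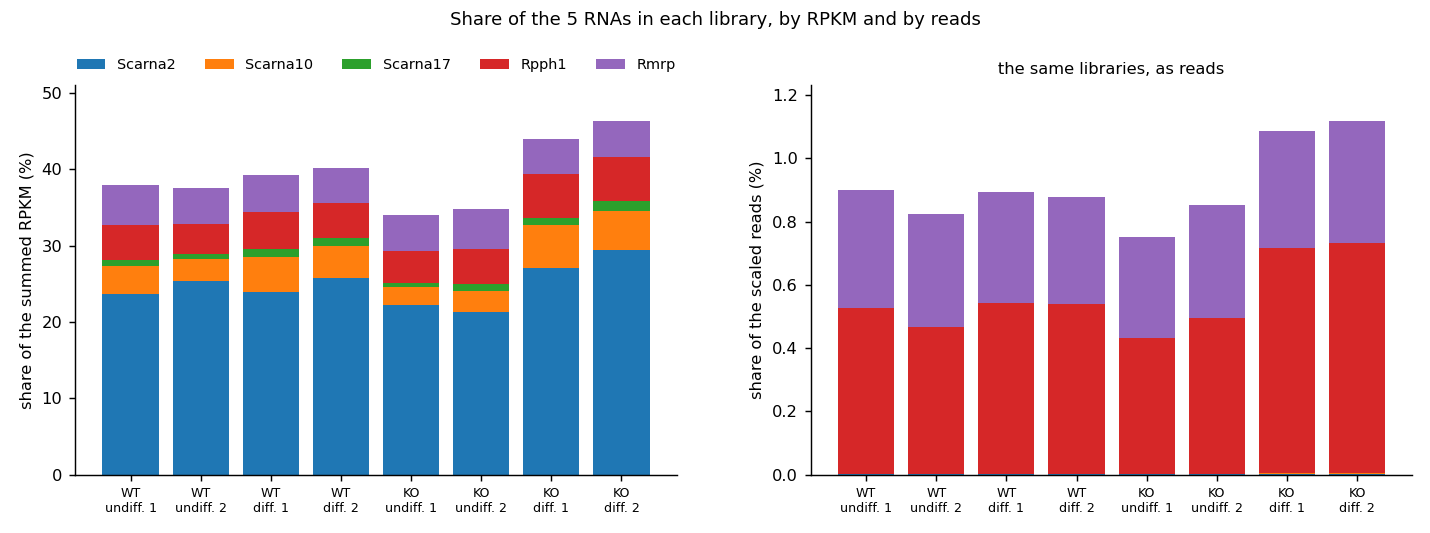
Stacked bars of the share of the 5 RNAs in each library, as percent of the summed RPKM (left) and as percent of the scaled reads (right), each axis from 0. *Scarna2* is the largest part of every bar on the left, at 21.3% to 29.4%, and at most 0.00263% on the right, where *Rpph1* and *Rmrp* fill the bars.

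Because of this share, column sums moved with the 5 RNAs. They ran from 859861 RPKM in an undifferentiated KO library to 1033211 RPKM in a differentiating KO library, a 1.2-fold range, and without the 5 RNAs from 554167 to 598865 RPKM, a 1.08-fold range. Scaling each library to its column sum would move the log2 difference of every other gene by 0.13 for KO minus WT in undifferentiated MSCs, -0.14 in differentiating MSCs, 0.02 for induction in WT and -0.25 for induction in KO. With the 5 rows left out of the sum these shifts were 0.05, -0.00007, 0.06 and 0.01. On the untransformed scale the 5 RNAs held 97.0% of the summed variance over libraries, of which *Scarna2* held 83.1%, *Scarna10* 9.0%, *Rpph1* 4.11%, *Scarna17* 0.421% and *Rmrp* 0.390%. The next row, *Eef1a1*, held 0.333%. On the log2 scale the 5 held 0.00589%, and *Scarna2* was at place 9321 by variance among the genes tested.

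The other 6 scaRNA rows were not chosen by the rule and were tested with limma over all 15342 genes (adjusted p-values by Benjamini-Hochberg). 5 passed the expression minimum, and *Scarna9*, with a model of 42 nt, was listed at 0 in all libraries. In KO MSCs 3 of the 5 rose with induction at an adjusted p under 0.05, 0 fell and 2 did not pass, and in WT 2 rose and 3 did not pass (4 rose with a pseudocount of 0.01 or a minimum of 1 RPKM). Of all genes 36.4% rose in KO and 31.6% in WT at this limit, and 72.9% and 64.4% passed in either direction, and 22.9% and 14.3% of all genes did so with a change over 2-fold. The genotype comparison passed for 32.2% of all genes in undifferentiated MSCs (1.7% over 2-fold) and for 40.7% in differentiating MSCs (3.3% over 2-fold). The median log2 difference of the 5 was 1.27 in KO and 0.68 in WT, where the median of all genes was near 0.

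*Scarna13*, a scaRNA of the H/ACA kind with a model of 275 nt, gave the best measured of these differences, from 2381 to 6048 reads per library. Its level was 651 and 619 RPKM in undifferentiated WT, 997 and 1036 RPKM in differentiating WT, 631 and 648 RPKM in undifferentiated KO and 1525 and 1560 RPKM in differentiating KO libraries. The undifferentiated groups of both genotypes overlap, and after induction both KO libraries lie above both WT libraries. It rose by 0.68 ± 0.0506 on the log2 scale (SE, adjusted p = 8.16e-05) in WT and by 1.27 ± 0.0506 (adjusted p = 3.84e-06) in KO, and the interaction was 0.59 ± 0.0715 (adjusted p = 0.00231). *Scarna3a* rose by 1.42 ± 0.188 in WT (adjusted p = 0.000929) and by 2.23 ± 0.188 in KO (adjusted p = 8.11e-05), from 17 to 109 reads per library. Its interaction did not pass (0.80 ± 0.266, adjusted p = 0.0571), but passed at 1.06 without replicate 2 of differentiating KO MSCs (adjusted p = 0.0192). *Scarna6*, with 370 to 776 reads, rose in KO (0.66 ± 0.104, adjusted p = 0.00152), and its difference in WT was 0.29 ± 0.104 (adjusted p = 0.0502), which passed under 8 of the alternatives tried (adjusted p = 0.0168 to 0.0499). *Scarna8* and *Scarna3b* had at most 5 and 17 reads in a library and did not pass in any comparison. The difference of *Scarna3b* with induction in WT was 1.96 ± 0.719 (adjusted p = 0.053) and passed under 5 alternatives, among them a pseudocount of 0.01 (adjusted p = 0.0494), a minimum of 1 RPKM (adjusted p = 0.047) and the fits without replicate 1 of undifferentiated WT (2.98, adjusted p = 0.0103) or replicate 2 of differentiating WT MSCs (2.65, adjusted p = 0.0465).

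Many of the other short RNA rows rested on few reads. Of 33 H/ACA small nucleolar RNAs (snoRNAs, which guide modification of ribosomal RNA) that were tested, 11 rose and 2 fell with induction in KO, 7 rose and 6 fell in WT (10 rose and 7 fell in KO after division by the column sum), and the interaction passed as higher in 7 and as lower in 0, against 19.4% and 20% of all genes (6.17% in either direction over 2-fold). After division by the column sum the interaction was higher in 2, and without replicate 2 of differentiating WT or replicate 1 of undifferentiated WT MSCs in 4. With induction 36.4% of all genes rose and 36.6% fell in KO, and 31.6% and 32.8% in WT. The median of these snoRNAs was 23.4 reads per library, and 11 of them had fewer than 10. The calls include rows that stood at 0 before induction and held very few reads after it. *Snora36b*, with a mean of 0.5 reads per library, counted as a rise in WT (log2 5.83) and in KO (6.06). *Snora24*, with a mean of 1.68 reads, counted as a rise in WT (7.49). *Snora74a*, with a mean of 3576 reads per library, was at 2215 and 2237 RPKM in undifferentiated WT, 2872 and 2565 in differentiating WT, 1589 and 1608 in undifferentiated KO and 3427 and 3691 in differentiating KO libraries. Its KO libraries lie below both WT libraries before induction (log2 -0.48 ± 0.083, adjusted p = 0.00908) and above both after it (0.39 ± 0.083, adjusted p = 0.0136). The first call is lost without replicate 2 of undifferentiated WT or either undifferentiated KO library, where the difference was -0.47 to -0.49. The second is lost without replicate 2 of differentiating WT MSCs, where the difference was 0.31. It is also lost after division by the column sum (0.25, adjusted p = 0.0591) and with only the compared libraries fitted (0.39, adjusted p = 0.129). *Snora74a* rose with induction in KO by 1.15 ± 0.083 (adjusted p = 4e-05), and the interaction was 0.87 ± 0.117 (adjusted p = 0.00326). *Snora68*, with a mean of 154 reads per library, was at 1366 and 1357 RPKM in undifferentiated WT, 2661 and 2478 in differentiating WT, 843 and 844 in undifferentiated KO and 2409 and 2250 in differentiating KO libraries. Its undifferentiated KO libraries were thus the lowest (KO minus WT, log2 -0.69 ± 0.0656, adjusted p = 0.00142), and it rose with induction by 0.92 ± 0.0656 in WT (adjusted p = 6.96e-05) and 1.46 ± 0.0656 in KO (adjusted p = 5.95e-06). Of 54 tested box C/D snoRNAs, 43 had fewer than 10 reads per library on average, 7 rose and 3 fell in KO and 4 rose and 1 fell in WT, fewer by share than the 36.4% and 36.6% of all genes in KO and 31.6% and 32.8% in WT. The rises in WT include *Snord111* and *Snord4a*, with means of 0.375 and 0.75 reads per library. The falls in KO include *Snord65*, with a mean of 1.12 reads. Without replicate 1 of differentiating KO MSCs more rose and more fell in KO. Without replicate 2 of differentiating WT or either undifferentiated WT library fewer rose in WT. The counts of box C/D snoRNAs thus shift with the libraries fitted. Of 5 rows with names beginning Rnu, 3 were tested. They were 2 snRNAs, the kind of RNA on which scaRNAs act, and *Rnu73b*, by its name U73B a snoRNA. Of the snRNAs *Rnu12* passed with induction in KO and *Rnu11* in no comparison. *Rnu12*, the U12 snRNA of the minor spliceosome, was at 17.2 and 56.5 RPKM in undifferentiated KO and 109 and 83.7 RPKM in differentiating KO libraries, with a mean of 27.4 reads per library. Its rise in KO (1.61 ± 0.585, adjusted p = 0.0456) no longer passed under 13 alternatives, and without replicate 1 of undifferentiated KO MSCs it was 0.76 (adjusted p = 0.183). *Rnu73b* fell by 2.01 in WT (adjusted p = 0.011). This call is lost with only the compared libraries fitted (adjusted p = 0.0618) and without replicate 2 of differentiating WT MSCs, where the difference was -1.54. The telomerase RNA *Terc* rose with induction in WT (0.98 ± 0.0866, adjusted p = 0.000169) and in KO (0.94 ± 0.0866, adjusted p = 0.000118), and its interaction did not pass (-0.03 ± 0.122, adjusted p = 0.856). *Terc* was also higher in KO than in WT, by 0.43 ± 0.0866 in undifferentiated and 0.39 ± 0.0866 in differentiating MSCs, and passed in both. *Vaultrc5*, the other short structural RNA tested, passed in no comparison.

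The mRNAs of the proteins that bind *Rpph1* and *Rmrp* mostly fell with induction. Of 11 RNase P and RNase MRP protein genes, 7 fell, 1 rose and 3 did not pass in WT, and 9 fell, 0 rose and 2 did not pass in KO, where 32.8% and 36.6% of all genes fell. The median log2 difference was -0.39 in WT and -0.46 in KO. *Pop1*, which encodes the largest protein subunit shared by both enzymes, was at 7.92 and 8.28 RPKM in undifferentiated WT, 3.57 and 4.03 in differentiating WT, 8.56 and 8.10 in undifferentiated KO and 2.57 and 2.13 in differentiating KO libraries. It changed by -1.07 ± 0.0995 on the log2 scale in WT (adjusted p = 0.000204) and by -1.79 ± 0.0995 in KO (adjusted p = 1.38e-05), with an interaction of -0.71 ± 0.141 (adjusted p = 0.0108). *Rpph1*, in the same libraries, was highest where *Pop1* was lowest. In undifferentiated MSCs 3 of the 11 were higher in KO and 0 were lower (all genes: 14.7% higher, 17.5% lower), and in differentiating MSCs 1 was higher and 3 were lower (all genes: 17.8% and 22.9%). Without replicate 2 of undifferentiated KO MSCs the 3 higher genes became 1.

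Of the protein partners of H/ACA RNAs, *Dkc1*, *Gar1* and *Nhp2* were higher in KO before induction and lower in KO after it. Of 6 core and assembly genes, 4 were higher in KO than in WT and 0 lower in undifferentiated MSCs (all genes: 14.7% higher, 17.5% lower). In differentiating MSCs 3 were lower and 0 higher (all genes: 22.9% lower, 17.8% higher). The interaction passed in 5 of 6, all negative, where 39.4% of all genes passed in either direction and 20% as negative. Fewer of these genes passed in undifferentiated MSCs without any 1 undifferentiated library, and in the interaction without any 1 of 5 libraries. Such a fit leaves 1 library in a group, so lost power and dependence on that library cannot be told apart. *Dkc1*, which encodes the pseudouridine synthase dyskerin, was at 16.8 and 17.7 RPKM in undifferentiated WT, 11.9 and 12.4 in differentiating WT, 24.2 and 23.7 in undifferentiated KO and 9.36 and 8.54 in differentiating KO libraries. It was thus highest in undifferentiated and lowest in differentiating KO MSCs, with an interaction of -0.91 ± 0.0775 (adjusted p = 0.00099). In KO *Nhp2* and *Gar1*, which encode dyskerin's partners, changed with induction by -1.44 ± 0.0638 (adjusted p = 5.79e-06) and -1.43 ± 0.0941 (adjusted p = 2.75e-05). Both had an interaction of -0.88, with SE of 0.0903 and 0.133 (adjusted p = 0.00148 and 0.00453).

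Box C/D proteins fell in both genotypes. Of 10 core and assembly genes, 9 fell and 1 rose in WT and likewise in KO, and the interaction was negative in 7 and positive in 0, where 32.8% of all genes fell in WT, 36.6% fell in KO and 20% had a negative interaction. Between the genotypes 3 were higher and 1 was lower in KO in undifferentiated MSCs (all genes: 14.7% higher, 17.5% lower). In differentiating MSCs 5 were lower and 0 higher (all genes: 22.9% lower, 17.8% higher). The 3 higher genes became 0 without any 1 undifferentiated library and the 5 lower genes 2 or 1 without replicate 2 of differentiating KO or of differentiating WT MSCs. Without 1 undifferentiated KO library the interaction was negative in 2 or 4, without replicate 1 of undifferentiated WT MSCs in 3, and without replicate 2 of differentiating WT MSCs in 4. *Nop56*, a core protein of box C/D particles, changed by -1.12 ± 0.083 in WT (adjusted p = 7.91e-05) and by -2.04 ± 0.083 in KO (adjusted p = 4.15e-06). *Nop58*, its partner in the particle, changed by -1.05 ± 0.0822 in WT (adjusted p = 0.000101) and by -1.59 ± 0.0822 in KO (adjusted p = 1.02e-05). The 1 gene that rose, *Znhit6*, encodes an assembly factor and was at 10.6 and 11 RPKM in undifferentiated WT, 52.5 and 56.8 in differentiating WT, 11.8 and 11.7 in undifferentiated KO and 50.9 and 45.5 in differentiating KO libraries. It rose by 2.33 ± 0.0636 in WT (adjusted p = 2.12e-06) and 2.02 ± 0.0636 in KO (adjusted p = 1.71e-06).

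Of 12 genes for Cajal body and SMN complex proteins, which assemble small ribonucleoproteins, 8 fell and 2 rose in WT and 10 fell and 2 rose in KO, against 32.8% and 36.6% of all genes that fell. In undifferentiated MSCs 5 were higher in KO and 0 lower, against 14.7% and 17.5% of all genes, and in differentiating MSCs 1 was higher and 4 were lower, against 17.8% and 22.9%. Without replicate 1 of undifferentiated KO MSCs 2 were higher, and without replicate 2 of undifferentiated WT MSCs 3, and without replicate 2 of differentiating KO or of differentiating WT MSCs 2 or 1 were lower after induction. *Nolc1*, a nucleolar and Cajal body chaperone, changed by -0.66 ± 0.0538 in WT (adjusted p = 0.000122) and by -1.3 ± 0.0538 in KO (adjusted p = 4.41e-06). *Gemin4* and *Gemin6*, subunits of the SMN complex, changed by -1.27 ± 0.0576 (adjusted p = 6.23e-06) and -1.54 ± 0.108 (adjusted p = 3.64e-05) in KO. The genes that rose were *Coil*, the Cajal body scaffold coilin (0.35 ± 0.0549 in WT, adjusted p = 0.00196), and *Gemin8* (0.69 ± 0.0608 in WT, adjusted p = 0.000169), and both also rose in KO. Division by the column sum, which moves with *Scarna2*, raised the genotype counts of these lists without turning them. The same division moves the log2 difference of every other gene by 0.13 in undifferentiated and -0.14 in differentiating MSCs, the directions in which these counts grew. The share of all genes called after it is not given, so the larger counts are not a result about these lists. In undifferentiated MSCs 6 RNase P and RNase MRP, 5 H/ACA, 7 box C/D and 8 Cajal body and SMN genes were then higher in KO, in place of 3, 4, 3 and 5. In differentiating MSCs 5, 5, 10 and 7 were lower, in place of 3, 3, 5 and 4.

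Among 14 genes for RNA polymerase III subunits and its repressor *Maf1*, 9 fell and 2 rose in WT and 10 fell and 2 rose in KO. Here and for the lists that follow, 32.8% of all genes fell and 31.6% rose in WT, and 36.6% fell and 36.4% rose in KO. The genes that rose in both were *Maf1* and *Polr3gl*. *Maf1* was at 25.4 and 25.5 RPKM in undifferentiated WT, 35.0 and 35.1 in differentiating WT, 21.9 and 22.5 in undifferentiated KO and 44.6 and 46.5 in differentiating KO libraries. Its order over the groups is the same as that of the *Scarna10* means, with the lowest values in undifferentiated and the highest in differentiating KO MSCs. How many of all genes share this order was not counted. The interaction of *Maf1* was 0.58 ± 0.0456 (adjusted p = 0.000843). *Polr3gl*, which encodes 1 of the alternative forms of a subunit, rose by 0.99 ± 0.0505 in WT (adjusted p = 1.79e-05) and 1.31 ± 0.0505 in KO (adjusted p = 3.44e-06), and the gene of the other form, *Polr3g*, changed by -0.32 ± 0.0723 in WT (adjusted p = 0.00869) and -0.92 ± 0.0723 in KO (adjusted p = 5.97e-05). Of 10 promoter factors for snRNA and upstream-promoter polymerase III genes, 6 fell and 2 rose in each genotype, and of 14 subunits of Integrator, which cleaves nascent snRNAs, 10 fell and 3 rose in WT and 9 fell and 2 rose in KO. Of 10 factors that bind or trim small RNA ends, 5 fell and 0 rose in WT and 5 fell and 2 rose in KO (0 rose and 7 fell there after division by the column sum). Among them *Dis3*, an exosome nuclease, changed by -1.78 ± 0.0805 in KO (adjusted p = 6.18e-06).

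**Figure D4:**
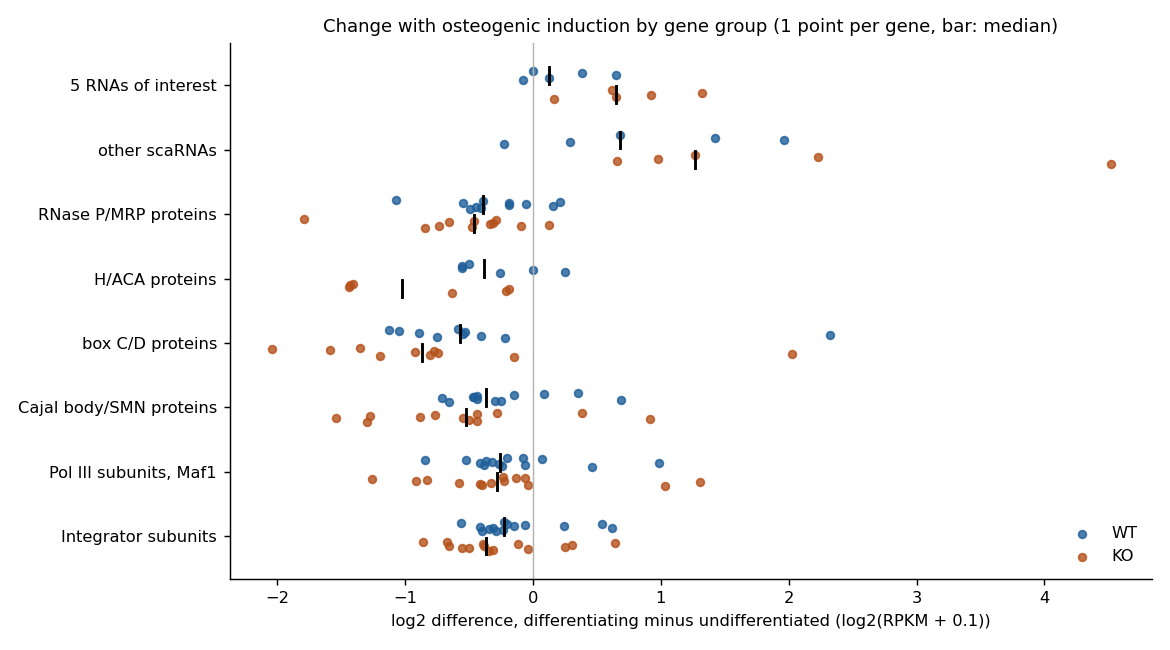
Log2 difference of differentiating minus undifferentiated MSCs in WT and KO, with 1 point per gene and a bar at the median of each group of genes. The other scaRNAs have medians of 0.68 (WT) and 1.27 (KO), and the H/ACA proteins of -0.38 and -1.02; the top 2 lines show the 5 RNAs chosen for their variance, without a test.

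The genes next to the 5 RNAs did not share a single direction. Of 7 tested, 3 fell, 1 rose and 3 did not pass with induction in WT, where 32.8% of all genes fell and 31.6% rose. In KO 5 fell and 2 rose, against 36.6% and 36.4% of all genes. The largest change was that of *Arhgef39* in KO (-2.62 ± 0.371), whose start lies 6637 nt from that of *Rmrp* on the same strand. *Tmem167b*, whose start lies 7715 nt from that of *Scarna2* on the same strand, was at 44.2 and 45.3 RPKM in undifferentiated WT, 45.5 and 44.3 in differentiating WT, 37.4 and 36.5 in undifferentiated KO and 48.9 and 49 in differentiating KO libraries. Like *Scarna2*, it was lowest in undifferentiated and highest in differentiating KO MSCs, and its WT groups overlapped. How many of all genes show such an order, or the reverse order of *Ncapd2* below, was not counted. *Tmem167b* was lower in KO before induction (-0.28 ± 0.03, adjusted p = 0.00211) and rose with induction in KO by 0.41 ± 0.03 (adjusted p = 4.51e-05). Its interaction was 0.40 ± 0.0424 (adjusted p = 0.0016), and after division by the column sum 0.14 (adjusted p = 0.0885). *Scarna10* overlaps *Ncapd2*, a condensin subunit gene, on the same strand, and *Ncapd2* was lowest where *Scarna10* was highest. It was at 9.92 and 9.35 RPKM in undifferentiated WT, 6.54 and 6.77 in differentiating WT, 13 and 12.6 in undifferentiated KO and 3.92 and 3.35 in differentiating KO libraries. It changed by -0.53 ± 0.0773 in WT (adjusted p = 0.00148) and by -1.79 ± 0.0773 in KO (adjusted p = 5.16e-06), with an interaction of -1.27 ± 0.109 (adjusted p = 0.00101). *Acaa2*, whose start lies 728 nt from that of *Scarna17* on the other strand, encodes a mitochondrial thiolase and rose by 1.04 ± 0.0604 in WT (adjusted p = 3.03e-05) and 1.55 ± 0.0604 in KO (adjusted p = 3.54e-06). *Parp2*, whose start lies 74 nt from that of *Rpph1* on the other strand, changed by -0.34 ± 0.052 in WT (adjusted p = 0.00183) and by -0.28 ± 0.052 in KO (adjusted p = 0.00289). *Ccdc107*, which overlaps *Rmrp* on the other strand, changed by -0.72 ± 0.0582 in WT (adjusted p = 0.000112) and by -0.95 ± 0.0582 in KO (adjusted p = 2.07e-05). *Ccnb1ip1* overlaps *Rpph1* on the same strand and did not pass the expression minimum. The libraries were stranded, but how overlapping genes on the same strand shared reads was not given in the sources used here, so the values of such pairs are uncertain.

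*Dnmt3l* was at 0.830 to 1.56 RPKM in the WT libraries and listed at 0 in all 4 KO libraries. Summed over 10 stromal markers the level was 1581 to 3909 RPKM, with each of the 10 at 1 RPKM or more in at least 1 library. Of 7 macrophage and leukocyte markers 3 (*Ptprc*, *Itgam* and *Adgre1*) stayed under 1 RPKM everywhere. The sum was 17.4 to 18.5 RPKM in undifferentiated WT, 30.0 to 34.2 in differentiating WT, 8.50 to 9.30 in undifferentiated KO and 13.5 to 14.5 in differentiating KO libraries, and its part in the results was not tested. Of the 6 markers tested, 2 were higher and 2 lower in KO in undifferentiated MSCs (all genes: 14.7% and 17.5%). In differentiating MSCs 1 was higher and 5 were lower (all genes: 17.8% and 22.9%). Most of the sum was *Lyz2*, which encodes lysozyme, at 12.8 to 26.5 RPKM in WT and 3.19 to 7.66 RPKM in KO libraries. Endothelial markers summed to at most 4.52 RPKM and erythroid markers to at most 0.874 RPKM. In such bulk samples fewer cells of a type and less RNA per cell cannot be told apart.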

How the data were processed

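RNA of 8 libraries was depleted of ribosomal RNA and sequenced after stranded library preparation. Per the labels and the study's methods, the authors aligned reads to mm10 with TopHat2 2.1.0 and computed gene values with Cuffdiff and Cufflinks 2.2.1. The deposited table holds RPKM of each gene in each library as the authors computed them, without pooling. Groups were taken from the sample labels, and 0 columns were without a sample. The 5 RNAs and all gene lists were chosen with earlier results of these data known.

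Here log2(RPKM + 0.1) of the 15342 genes averaging 0.1 RPKM or more was fitted in limma 3.58.1 (R 4.3.3) with 4 group means over all 8 libraries and a variance trend, and p-values were adjusted by Benjamini-Hochberg over all genes. Fold changes on this scale understate changes of genes whose values lie near 0.1 RPKM. Short models that stood at 0 RPKM in a group instead gave very large differences from few reads. With induction in WT the log2 difference was 10.3 for *Snord111*, with a mean of 0.375 reads per library. For *Snora36b*, with a mean of 0.5 reads per library, it was 5.83. A gene passed at an adjusted p under 0.05. Read numbers were recovered by assuming a fragment length of 200 ± 80 nt and at least 49 nt, with lengths from RefSeq for small RNAs and from GENCODE otherwise (95.8% of rows had a length). No count test was run, because genes with several transcripts do not give whole reads. All 5 RNAs passed the expression minimum. The fit was tested on simulated data with known changes, as was the recovery of reads. Sequences are from GENCODE M21 transcripts (GRCm38), and no promoter sequence was used. Python 3.11.15, numpy 2.4.6 and matplotlib 3.10.9 were used.

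Genes named from the lists were at most 3 per list and comparison with the largest change among those over 2-fold and past the test. Besides them the 10 highest rows and 3 genes most like each RNA were named, except 1 gene for *Rmrp* that is not reported here, and any other gene was picked with its values in view. The 202 alternatives listed covered the pseudocount, filter, normalization, variance trend, a replicate block, the libraries fitted and each library left out. A fit without 1 library leaves 1 library in its group, so calls lost there may reflect lost power.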

Additional observations from a re-analysis of the deposited data

Results flagged for a closer look

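*Scarna2* and *Scarna10* differed between the genotypes in opposite directions before and after induction. For *Scarna2* the log2 difference of KO minus WT was -0.30 in undifferentiated and 0.32 in differentiating MSCs, with every KO library on that side of every WT library. For *Scarna10* the values were -0.50 and 0.44, again with no overlap. *Rmrp* differed in the direction of its change with induction, at -0.080 in WT and 0.17 in KO, each without overlap of the libraries. This depends on the scaling, since after division by the column sum the KO value is -0.08 and after quantile normalization -0.49. The column sum itself moves with *Scarna2*, and quantile values of *Rmrp* follow only its rank among the RNAs chosen for their variance. After median centring, or division by the column sum without the chosen RNAs, neither the WT nor the KO value of *Rmrp* changed sign. The difference between the 2 contrasts was not tested for any of the 3 RNAs, because they were chosen by their variance over these libraries. Outlying libraries could not be looked for with 2 libraries per group.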

How the results depend on the processing

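With a pseudocount of 1, fewer genes were called at over 2-fold and an adjusted p under 0.05: 99 in place of 261 for KO against WT in undifferentiated MSCs, 234 in place of 507 in differentiating MSCs, 1249 in place of 2198 for induction in WT, 2267 in place of 3511 in KO, and 479 in place of 947 for the interaction. For undifferentiated MSCs a pseudocount of 0.01 gave 402 genes and a minimum of 1 RPKM gave 166. Other alternatives kept these counts within 1.5 times. Leaving out each library in turn gave 249 to 315, 420 to 660, 2091 to 2238, 3416 to 3716 and 838 to 1072 genes.

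The share of the 5 RNAs, in the order undifferentiated WT, differentiating WT, undifferentiated KO and differentiating KO, was 3.20%, 3.44%, 2.88% and 4.33% of RPKM multiplied by annotated length, and 0.723%, 0.777%, 0.684% and 0.985% of RPKM multiplied by effective length, here of the sum over rows with a length. Without other small RNA rows it was 40.9%, 43.1%, 37.3% and 49.2%. With 1 library left out of its group it was 37.6% to 37.9%, 39.3% to 40.1%, 34.0% to 34.8% and 44.0% to 46.4%. Their share of the variance was 0.00589% on the log2 scale, 11.8% of square roots, 93.0% after division by the column sum, 0.607% for RPKM multiplied by effective length and 97.7% without rows listed at 0 in both libraries of a group, and 96.0% to 97.3% with each library left out.

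Of 180 alternative values of the 20 log2 differences of the 5 RNAs, 27 moved by more than the spread between replicates and 14 changed sign. Without 1 library these were *Scarna2* with induction in WT (-0.07 without replicate 1 of undifferentiated or replicate 2 of differentiating WT MSCs) and *Scarna17* between genotypes (0.05 without replicate 1 of undifferentiated WT, 0.17 without replicate 1 of undifferentiated KO and -0.03 without replicate 2 of differentiating KO MSCs). After division by the column sum *Rpph1* turned to 0.02 between the undifferentiated genotypes and *Scarna17* to 0.08, and after quantile normalization *Rmrp* turned to -0.43 between the differentiating genotypes and -0.49 with induction in KO. Quantile normalization gives the highest rows the same value in each library, and differences of *Scarna2* became 0 by that construction. The values of *Rmrp* under it likewise follow only its rank among the 5 RNAs.

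The replicate numbers in the labels name no shared culture, and replicate differences correlated at -0.09 to 0.03 between groups. With the replicate block the counts were 244, 504, 2194, 3511 and 922, and within 1.5 times in each comparison. Of 1110 alternative values of 59 gene differences given with a test, 1073 kept their side of the threshold, 15 passed it (*Scarna6*, *Scarna3a* and *Scarna3b*), 22 lost it (*Rnu12*, *Rnu73b*, *Snora74a* and *Tmem167b*) and 0 turned sign where a call passed. Depth limits *Scarna17* and most box C/D snoRNAs.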
